A study of Mus musculus with 6 samples.

Results

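Ighv1-64, Ighv1-18, Ighv1-50, Ighv1-53, Ighv1-81, Ighv1-55 and Ighv1-9 are 7 heavily used V genes of the mouse Ighv1 (J558) family. A sequence was counted for a gene when that gene, without its allele, was the first V gene of its call. The 7 genes of 176 V genes held 37789 of 228609 sequences (16.5%), and between 16.4% and 16.8% in each library. By gene, IGHV1-64 (as the deposited calls spell it) had 6604 sequences, IGHV1-18 had 5812, IGHV1-50 had 5739, IGHV1-53 had 5110, IGHV1-55 had 4982, IGHV1-81 had 4938 and IGHV1-9 had 4604. They were chosen by their share of sequences in these same libraries. Ighv1-26, Ighv1-72 and the Ighv1 genes most depleted or enriched among productive joins were set apart from them. How often they were used, and their ratio of productive to out-of-frame share, are therefore given as descriptions with no test.

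A heavy-chain variable exon forms when a D segment joins a J segment and a V segment then joins the DJ unit. Bases are trimmed from the ends and non-templated bases are added, so that the join, the CDR3 of the antibody, differs between cells. A productive join keeps the reading frame without a stop codon and can encode a heavy chain, while an out-of-frame join is carried along on the other allele and encodes none. Ighv1 is the largest V family of the mouse and much of it lies far from the D segments.

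Joins were read from genomic DNA by VDJ-seq, which sequences V, D and J joins at the DNA level. All 6 libraries are of C57BL/6 mouse spleen at an age of 12 weeks, from B cells enriched on magnetic columns by removing other cells. Of the 6 libraries, 4 differed in the DNA amount put in (500 ng, 1 µg, 2.5 µg or 5 µg). The other 2, Q5_vent and Q5_Q5, carry the names of DNA polymerase combinations, and the labels state no DNA amount for them. Each library was the only one of its group and held between 8704 and 112320 sequences after duplicate removal. No source says that they came from separate animals, so p-values measure only the spread between these libraries, which may be technical. The files hold Igh joins and no expression, so the labelled cell type was not checked against markers.

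All 7 genes lie in the Igh locus on chromosome 12, where RefSeq (GRCm38.p6) annotates each as a V segment. Ighv1-9 is at chr12:114583569-114583862, Ighv1-18 at chr12:114682632-114682925 and Ighv1-50 at chr12:115119748-115120041. Ighv1-53 is at chr12:115158445-115158835, Ighv1-55 at chr12:115208137-115208527, Ighv1-64 at chr12:115507587-115507977 and Ighv1-81 at chr12:115920279-115920572. The last 45 germline bases of each V gene are shown because they run up to the join and their last 6 bases, from base 289, open the CDR3. They were read from deposited sequences that matched the germline over all 294 bases, and each gene gave 1 such sequence. Capitals mark bases that differ from Ighv1-64.
Ighv1-64: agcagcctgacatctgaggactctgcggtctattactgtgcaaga
Ighv1-18: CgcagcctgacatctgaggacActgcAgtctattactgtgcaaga
Ighv1-50: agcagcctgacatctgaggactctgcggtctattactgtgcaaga
Ighv1-53: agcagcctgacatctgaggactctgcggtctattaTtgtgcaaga
Ighv1-81: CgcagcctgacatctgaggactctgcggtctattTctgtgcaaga
Ighv1-55: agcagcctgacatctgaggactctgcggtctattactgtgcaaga
Ighv1-9: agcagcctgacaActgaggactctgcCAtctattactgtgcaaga

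All 7 genes ended in the same 9 bases, which hold the codon of the conserved cysteine and the bases the V gene gives to the CDR3. Over the whole 294 bases, Ighv1-18 and Ighv1-9 were the least alike of the 21 pairs (83.7% identity) and Ighv1-64 and Ighv1-53 the most alike (95.2%). Only a few genes outside the 7 were compared, and of these Ighv1-26 was the most like Ighv1-18, at 97.3% identity. Ighv1-50 (96.9% with Ighv1-59), Ighv1-64 and Ighv1-53 (95.9% each with Ighv1-72) were also more like such a gene than any of the 7.

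Shared 3′ ends limited what could be called. Ighv1-50 matched Ighv1-59 over the last 126 bases, Ighv1-55 over the last 86 and Ighv1-52 over the last 73, so a read that ended inside these stretches could not tell the genes apart. The long V ends are shown with capitals where a base differs from Ighv1-50.
Ighv1-50: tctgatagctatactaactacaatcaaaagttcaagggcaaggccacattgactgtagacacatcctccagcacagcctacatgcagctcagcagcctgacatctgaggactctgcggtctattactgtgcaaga
Ighv1-55: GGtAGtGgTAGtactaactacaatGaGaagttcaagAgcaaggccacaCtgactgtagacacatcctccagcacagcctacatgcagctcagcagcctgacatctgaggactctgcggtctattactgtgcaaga
Ighv1-52: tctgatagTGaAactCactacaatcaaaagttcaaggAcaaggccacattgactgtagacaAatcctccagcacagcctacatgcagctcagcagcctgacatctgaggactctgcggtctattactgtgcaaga
Ighv1-59: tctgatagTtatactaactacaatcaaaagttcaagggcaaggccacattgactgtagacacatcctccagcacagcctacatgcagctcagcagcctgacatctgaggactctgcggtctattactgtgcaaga

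Ighv1-53 had the same kind of partner in Ighv1-72, with which it shared the last 71 bases. Their ends are shown with capitals where Ighv1-72 differs.
Ighv1-53: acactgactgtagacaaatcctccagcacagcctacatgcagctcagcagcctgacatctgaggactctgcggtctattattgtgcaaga
Ighv1-72: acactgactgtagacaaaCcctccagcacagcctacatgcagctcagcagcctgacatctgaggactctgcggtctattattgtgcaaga

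Counted from 1 at the first germline base, the base nearest the join that separates Ighv1-50 from each partner is T208C for Ighv1-55, C221A for Ighv1-52 and C168T for Ighv1-59. For Ighv1-53 and Ighv1-72 it is T223C. Calls that named several V genes made up 59.1% to 68.4% of Ighv1-50 sequences over the 6 libraries (median 62.1%), 16.7% to 27.1% of Ighv1-53 sequences (median 24.9%) and at most 0.524% in the other 5 genes. The commonest such call, Ighv1-50 with Ighv1-52 and Ighv1-55, covered 1949 of the 5739 Ighv1-50 sequences. Because the first name of a tied call was Ighv1-50, Ighv1-55 was named after it in 2484 sequences, against 4982 of its own.

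Use was therefore also counted by the length of the V alignment. Among sequences with fewer than 75 aligned V bases, Ighv1-50 made up 7.47%, Ighv1-53 4.22% and Ighv1-55 0.00748% (2 of 26754 sequences). Among those with 150 bases or more, the same genes made up 1.39%, 1.93% and 2.54%. Over the 5 length classes Ighv1-64 lay between 2.70% and 3.13%, Ighv1-18 between 2.27% and 2.64%, Ighv1-9 between 1.84% and 2.21%, and Ighv1-81 between 1.60% (under 75 bases) and 2.39%.

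**Figure D1:**
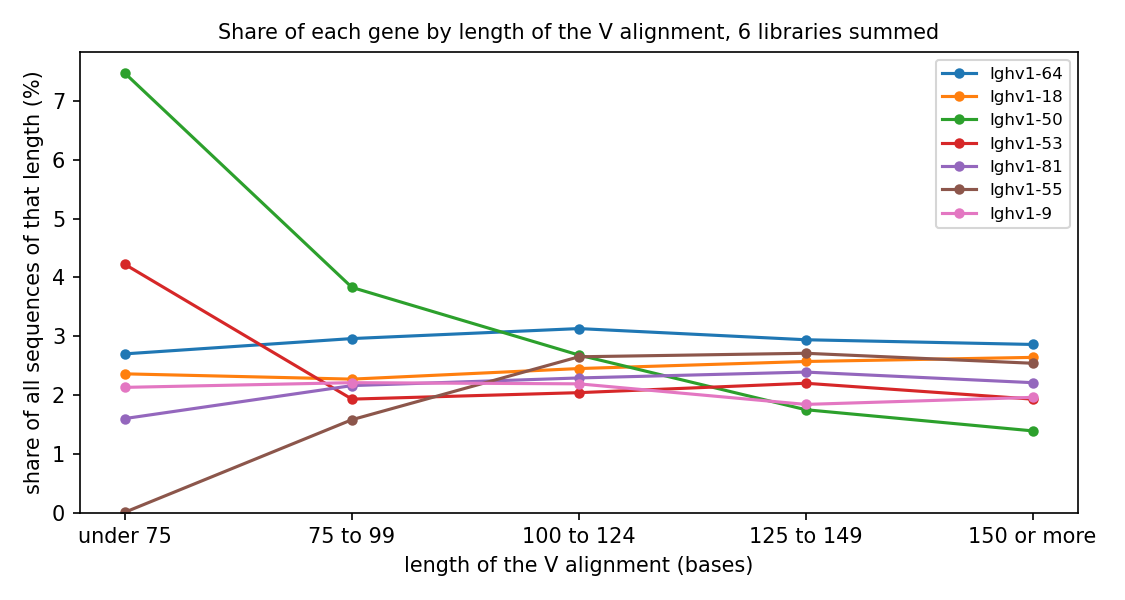
Share of each of the 7 genes (%, y axis) among all sequences of 5 classes of V alignment length in bases (x axis), with the 6 libraries summed and no error shown. Ighv1-50 falls from 7.47% to 1.39% and Ighv1-55 rises from 0.00748% to 2.54% from the shortest to the longest class.

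Ighv1-64 was the most used of the 7, at 2.76% to 2.93% of the sequences of a library (median 2.90%), and its range did not overlap with that of any other of them. Ighv1-50 (2.34% to 2.72%, median 2.55%) and Ighv1-18 (2.49% to 2.67%, median 2.54%) followed and overlapped. These 3 genes ranked 3rd, 5th and 4th of all V genes by mean share, where only Ighv1-26 and Ighv3-6 lay higher.

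The remaining genes formed a run with overlapping neighbours. Ighv1-53 took 2.20% to 2.38% (median 2.25%), Ighv1-55 1.90% to 2.25% (median 2.16%), Ighv1-81 2.05% to 2.26% (median 2.15%) and Ighv1-9 1.98% to 2.22% (median 2.01%). Just inside the choice stood Ighv1-9, 13th by mean share with 2.04%, and just outside stood Ighv1-52, 14th with 1.89%. With V alignments of at least 150 bases the order changed: Ighv1-50 fell to a median of 1.37% and rank 26, Ighv1-53 to 1.94% and rank 12, while Ighv1-55 came to 2.49% and rank 7. Ighv1-64 (2.91%), Ighv1-18 (2.65%) and Ighv1-81 (2.19%) kept ranks 3, 4 and 10, and Ighv1-9 (2.00%) moved from 13 to 11.

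Among productive joins Ighv1-64 took 3.11% to 3.39% (median 3.34%), Ighv1-50 2.84% to 3.33% (median 3.10%) and Ighv1-18 2.71% to 2.99% (median 2.77%). Here and in the values by join class below, Ighv1-50 includes its tied calls with other genes (median 62.1% of its sequences). Over all joins its share was 1.37% with V alignments of at least 150 bases, so its place in these orders may be that of several genes. The other 4 genes had medians from 2.34% in Ighv1-9 to 2.67% in Ighv1-53. All neighbours in this order overlapped.

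The order was different among out-of-frame joins, which cannot be selected through the receptor they would encode. Here Ighv1-18 was highest, at 1.81% to 1.98% (median 1.87%), ahead of Ighv1-64 at 1.53% to 1.93% (median 1.63%), in 5 of 6 libraries. As called, both stood clear of the other 5 genes. The medians of these 5 lay between 0.990% in Ighv1-50 and 1.08% in Ighv1-53, and their highest value in any library was 1.37%. The Ighv1-64 share includes joins whose deposited CDR3 began early, at germline base 262, a start described below. These were 83 of 806 out-of-frame Ighv1-64 joins (10.3%), against 30 of 5588 productive ones (0.537%). Whether Ighv1-64 stays clear of the 5 genes without them was not tested. The 7 genes together made up 19.2% to 19.5% of productive joins and 8.37% to 9.34% of out-of-frame joins. The out-of-frame values rest on few joins per library, from 19 (Ighv1-55 in Q5_Q5) to 494 (Ighv1-18 at 5 µg).

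**Figure D2:**
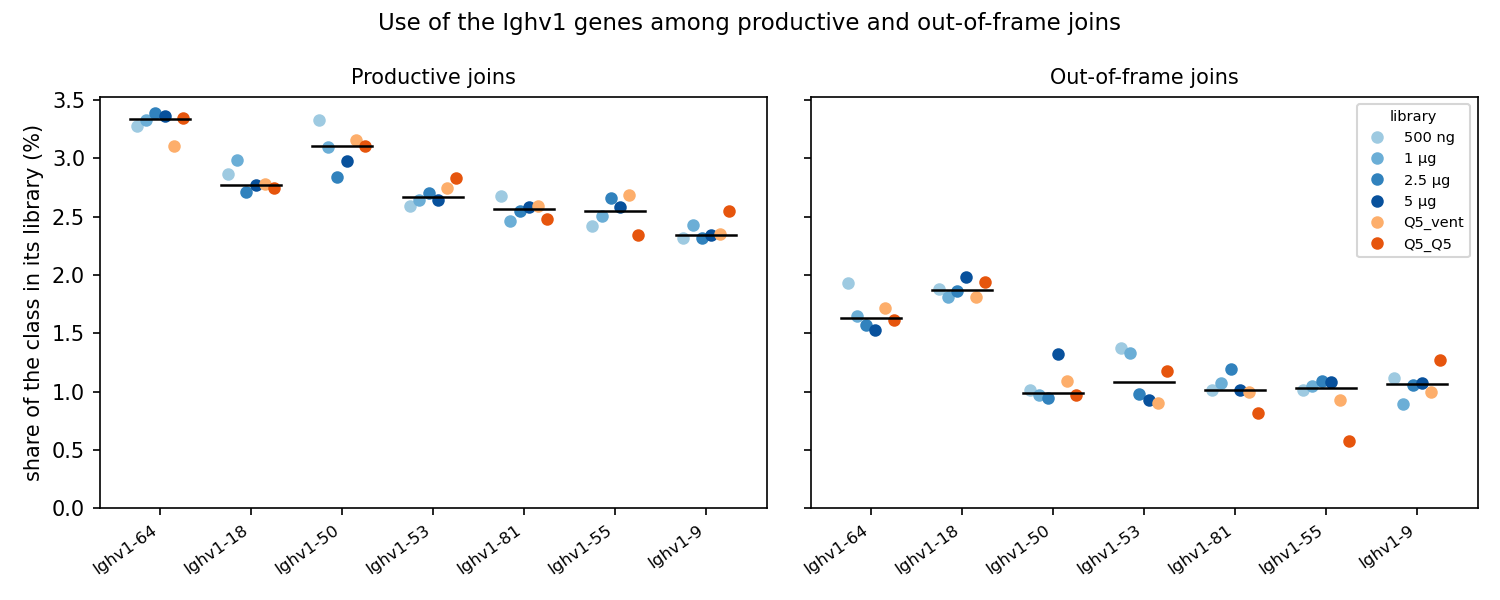
Share of productive joins (left) and of out-of-frame joins (right) of a library that used each gene (%, y axis), with a point per library and a bar at the median of the 6. Ighv1-64 has the highest median among productive joins (3.34%) and Ighv1-18 among out-of-frame joins (1.87%).

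The share among productive joins over that among out-of-frame joins was lowest in Ighv1-18, with a ratio of 1.40 to 1.65 (median 1.48). No other member overlapped with it. Ighv1-64 had ratios of 1.69 to 2.19 (median 2.04) and Ighv1-9 of 1.99 to 2.70 (median 2.17). Ighv1-55 (2.33 to 3.96, median 2.41), Ighv1-53 (1.86 to 3.01, median 2.56), Ighv1-81 (2.14 to 2.98, median 2.56) and Ighv1-50 (2.25 to 3.21, median 3.08) overlapped with each other. The Ighv1-50 ratios again include its tied calls with other genes. Those of Ighv1-64, here and on the log2 scale below, include its joins with the early CDR3 start, which were commoner among out-of-frame joins.

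As weighted means over the libraries, the log2 ratios were 0.53 ± 0.0465 (SE, n = 6) in Ighv1-18, 1.07 ± 0.0512 in Ighv1-64, 1.14 ± 0.0606 in Ighv1-9, 1.28 ± 0.0627 in Ighv1-81, 1.31 ± 0.0641 in Ighv1-55, 1.36 ± 0.0659 in Ighv1-50 and 1.40 ± 0.0681 in Ighv1-53. All were above 0 in 6 of 6 libraries. Leaving out 1 library at a time moved the mean of Ighv1-50 between 1.3 and 1.6. Its median over the libraries was 1.62, above the 1.35 of Ighv1-53, so the order of these genes differs between means and medians. Of 115 V genes with at least 100 sequences, 57 (49.6%) were called higher and 53 (46.1%) lower among productive joins, with medians of 0.17 over all of them and 0.74 over 48 other Ighv1 genes. Since this ratio bore on the choice of genes, nothing is read from their count. Set against the other Ighv1 genes only, Ighv1-18 was at -0.07 ± 0.0496 and the other 6 lay between 0.46 and 0.79, where 49.1% of 55 Ighv1 genes were called higher and 32.7% lower. Of the genes chosen as the most like them, Ighv1-26 had 1.09, Ighv1-72 0.94 and Ighv1-82 1.76.

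**Figure D3:**
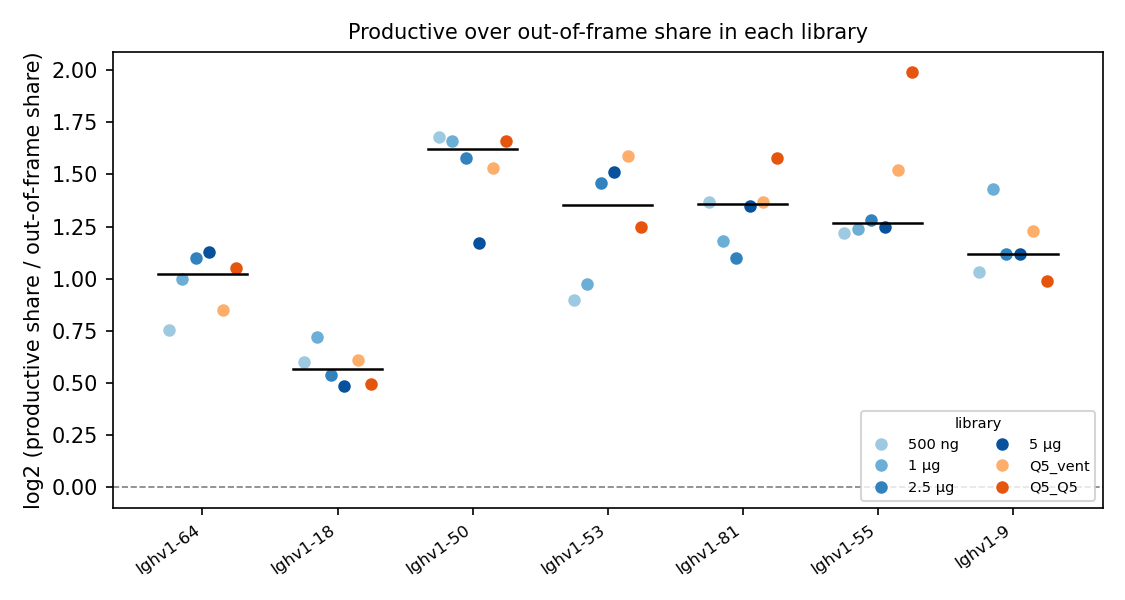
Log2 of a gene's share among productive joins over its share among out-of-frame joins (y axis) in each of the 6 libraries (points), with a bar at the median and a dashed line at equal shares. The 6 points of Ighv1-18, between 0.487 and 0.719, lie below every point of the other genes, of which the lowest is Ighv1-64 at 500 ng with 0.753.

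As a share of their own sequences, 79.6% to 81.8% of Ighv1-18 joins were productive (median 80.4%), below the 82.0% to 85.2% of Ighv1-64 (median 84.6%). The medians of the other 5 ran from 85.4% in Ighv1-9 to 88.8% in Ighv1-50, against 72.6% to 73.9% over all V genes. In-frame joins with a stop codon or otherwise not productive made up 1.12% to 4.07% of a gene's sequences.

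The J segment a gene was joined to was compared with that of all other V genes, and the 7 genes were not tested against each other. Of their 28 J values 15 were called (8 lower and 7 higher), near the background of 41.5% of all 460 (23.7% higher and 17.8% lower), so the count says nothing particular about them. Ighv1-18 was joined to Ighj2 in 23.1% to 28.1% of its sequences (median 24.9%), where all V genes together had 28.3% to 32.5% (median 30.2%). It was joined to Ighj1, the J segment nearest the D segments, in 19.1% to 25.9% (median 22.1%) against 17.8% to 19.2% (median 18.3%). Ighj2 lay below the share in the other V genes, and Ighj1 above it, in 6 of 6 libraries.

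On the log2 scale, with limma over 115 V genes and 4 J segments, Ighv1-18 had -0.25 ± 0.0333 for Ighj2 (SE, n = 6, adjusted p = 6.3e-13) and 0.22 ± 0.0362 for Ighj1 (adjusted p = 2.7e-08). Ighj2 was lower in no other of the 7 genes (19.1% of 115 V genes were lower) and Ighj1 higher in no other (20.0%). Ighj2 was higher in 4 of the 7 genes (27.0%): Ighv1-55 (0.17 ± 0.0305, adjusted p = 3.5e-07), Ighv1-50 (0.16 ± 0.0296, adjusted p = 8.6e-07), Ighv1-81 (0.13 ± 0.0307, adjusted p = 8.9e-05) and Ighv1-64 (0.11 ± 0.0281, adjusted p = 3e-04). Ighj2 lay above the other V genes in 6 of 6 libraries for the first 3 and in 5 of 6 for Ighv1-64. These shifts are small: medians were 32.1% to 32.8% in the 4 genes. Among 48 other Ighv1 genes 14 were higher and 1 lower for Ighj2.

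Ighv1-9 leaned to Ighj3, with 24.4% to 31.7% of its joins (median 26.7%) against 23.3% to 25.5% over all V genes, and was higher in 6 of 6 libraries (0.18 ± 0.0342, adjusted p = 2.1e-06). Ighj3 was higher in 2 of the 7 genes (27.8% of all tested), Ighv1-9 and Ighv1-18. It was lower in 3 of 7 (20.0%), Ighv1-64, Ighv1-81 and Ighv1-55. The 0.08 of Ighv1-18 (adjusted p = 0.033) lost its call without the 1 µg, 5 µg or Q5_Q5 library (0.0674, 0.0789 and 0.0730). The -0.08 of Ighv1-64 (adjusted p = 0.047) lost it without any library but 5 µg (-0.0768 to -0.0493), and the -0.10 of Ighv1-55 without 5 µg (-0.0298), while the -0.14 of Ighv1-81 (adjusted p = 0.0014) kept it without any 1 library.

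Ighj1 was lower in 3 of 7 genes (14.8% of all tested), Ighv1-9 (-0.16), Ighv1-55 (-0.13) and Ighv1-50 (-0.12), with adjusted p of 0.0022, 0.014 and 0.011. Each call was lost without 1 library: without 2.5 µg Ighv1-9 came to -0.0934 and Ighv1-55 to -0.120, and without 5 µg Ighv1-50 came to -0.0780, none of them past the test. Ighj4 was lower only in Ighv1-50 (17.4% of all tested; -0.12, adjusted p = 0.0016), again not without 5 µg (-0.0768). With calls naming 1 gene, Ighj4 and Ighj1 in Ighv1-50 missed the threshold (-0.116 and -0.127, adjusted p = 0.073 and 0.12). So did Ighj3 in Ighv1-64 (-0.0687, adjusted p = 0.08). No J segment passed the test in Ighv1-53. Without unclear primer tags, Ighj3 in Ighv1-18 (0.0746), Ighv1-55 (-0.0702) and Ighv1-64 (-0.0591) and Ighj1 in Ighv1-50 (-0.0789) and Ighv1-55 (-0.0825) also missed the threshold.

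Of the 15 J values called, only Ighj1 and Ighj2 of Ighv1-18 also passed when the 6 libraries were weighted equally (adjusted p = 0.046 and 0.015), where 9.35% of all J values were called higher and 8.26% lower. The weights follow depth, so the 2.5 µg and 5 µg libraries count most otherwise. Against the other Ighv1 genes only, Ighv1-18 had -0.32 for Ighj2 and 0.28 for Ighj1, and Ighv1-9 had 0.18 for Ighj3, all called (11.4% of 220 values were higher and 7.73% lower). In this comparison Ighj2 was also called in Ighv1-50 (0.10) and Ighv1-55 (0.11) but not in Ighv1-64 (0.0572, adjusted p = 0.14) or Ighv1-81 (0.0788, adjusted p = 0.054). No Ighj1-lower call was left, with -0.0637 in Ighv1-50, -0.0675 in Ighv1-55 and -0.105 in Ighv1-9. The Ighj3 calls of Ighv1-18 (0.0834), Ighv1-55 (-0.0970) and Ighv1-64 (-0.0769) also missed the threshold. With V alignments of at least 150 bases (20.8% of J values higher and 13.2% lower) Ighj2 was higher in Ighv1-50 (0.13, adjusted p = 0.026), Ighv1-64 (0.10, adjusted p = 0.016) and Ighv1-81 (0.16, adjusted p = 0.00036), but not in Ighv1-55 (0.08, adjusted p = 0.072). It then also passed in Ighv1-53 (0.11, adjusted p = 0.028). The Ighj3 calls of Ighv1-81 (-0.0837, adjusted p = 0.17), Ighv1-55 (-0.0168) and Ighv1-64 (-0.0270) ended there, as did the Ighj1 calls of Ighv1-9 (-0.0995, adjusted p = 0.20), Ighv1-55 (-0.0937) and Ighv1-50 (-0.0607).

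In productive joins alone 29.2% of all J values were called higher and 24.7% lower. Ighj1 was lower in 5 of the 7 genes (19.8% of 96 V genes) and higher in 1 (31.2%). Ighj2 was higher in 4 (28.1%) and lower in 1 (29.2%). Ighj3 was higher in 4 (28.1%) and lower in 1 (26.0%), and Ighj4 lower in 3 (24.0%) and higher in 0 (29.2%). The Ighj3 calls of Ighv1-55 (-0.0405, adjusted p = 0.41) and Ighv1-64 (-0.0446, adjusted p = 0.30) ended in this class. Here Ighv1-18 had -0.31 ± 0.0374 for Ighj2 and 0.24 ± 0.0422 for Ighj1, and Ighv1-9 had 0.28 ± 0.0402 for Ighj3 (adjusted p of 3e-10, 1.9e-06 and 3.9e-08). In out-of-frame joins the same values were 0.04 ± 0.0592, -0.07 ± 0.0945 and 0.03 ± 0.0908, and none of the 28 J values of the 7 genes was called (2.7% of all values tested were called higher and 1.23% lower). Out-of-frame joins are fewer and the difference between the classes was not tested.

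**Figure D4:**
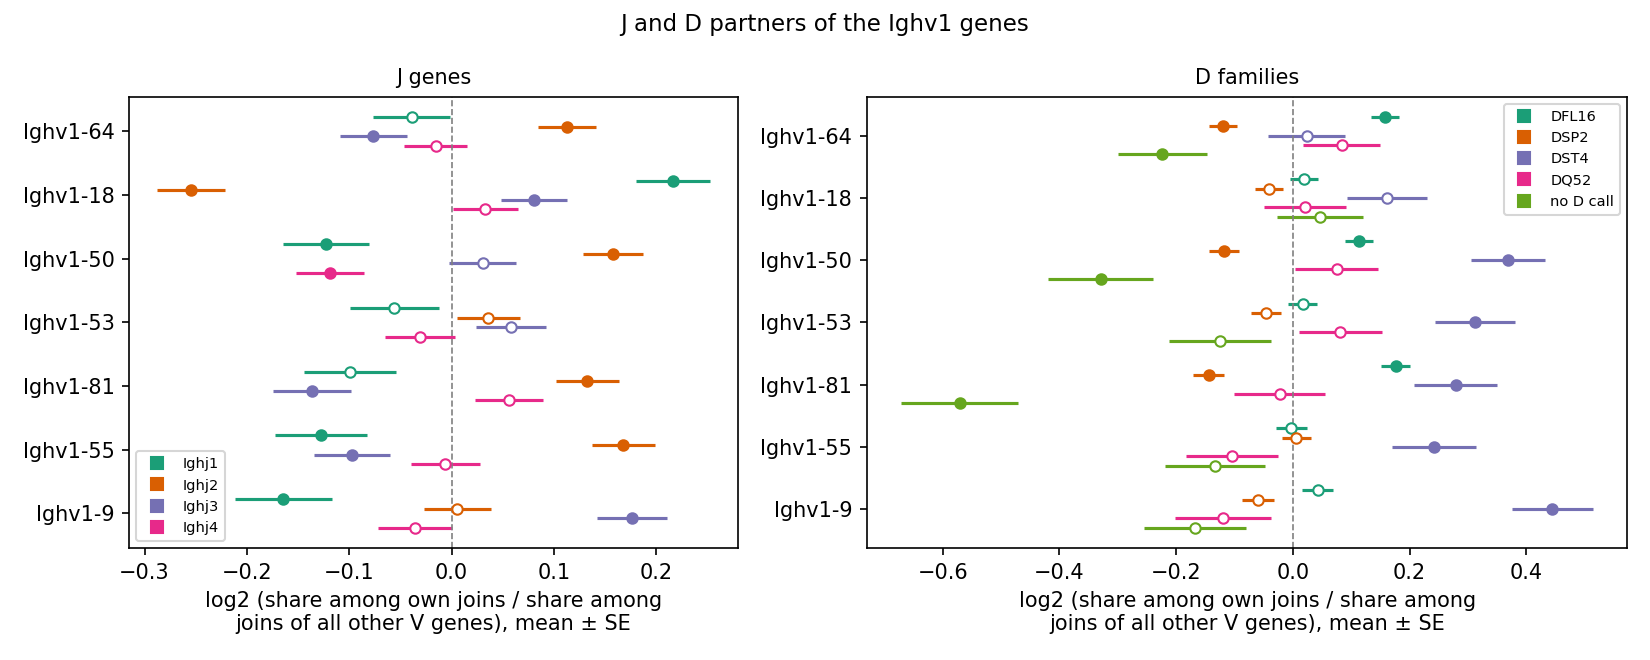
Log2 of the share of each J segment (left) and D family (right) among a gene's joins over its share among joins of all other V genes (x axis), as the weighted mean of 6 libraries with its standard error; filled points passed the test (adjusted p under 0.05). Ighv1-18 stands opposite to Ighv1-50, Ighv1-55, Ighv1-64 and Ighv1-81 for Ighj2, and Ighj1 reaches 0.22 in it.

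For the D segment, 14 of 35 values of the 7 genes were called, where 31.7% of all 575 were (20.0% higher and 11.7% lower). DST4, the Ighd3 family, was higher in 5 of 7 genes (18.3% of 115 V genes) and lower in none (8.7%). Ighv1-9 had it in 5.71% to 8.57% of its joins (median 7.71%), Ighv1-50 in 5.54% to 7.71% (median 7.32%), Ighv1-81 in 5.84% to 8.63% (median 7.29%), Ighv1-53 in 6.15% to 8.67% (median 7.08%) and Ighv1-55 in 4.20% to 7.32% (median 6.56%). Over all V genes it was 5.44% to 6.12% (median 5.79%), so 4 of these 5 ranges overlapped with it and that of Ighv1-53 did not. The lowest library of Ighv1-55 lay below all 6 values of all V genes.

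The log2 differences for DST4 were 0.44 ± 0.0693 in Ighv1-9 (SE, n = 6, adjusted p = 5e-07, higher in 5 of 6 libraries), 0.37 ± 0.0637 in Ighv1-50 (adjusted p = 3.6e-06, 5 of 6), 0.31 ± 0.0681 in Ighv1-53 (adjusted p = 0.00021, 6 of 6), 0.28 ± 0.0714 in Ighv1-81 (adjusted p = 0.0016, 6 of 6) and 0.24 ± 0.0722 in Ighv1-55 (adjusted p = 0.0069, 4 of 6). The last call was lost without 5 µg (0.127) and in productive joins alone (0.162, adjusted p = 0.091). That of Ighv1-53 was lost with V alignments of at least 150 bases (0.24, adjusted p = 0.056). Ighv1-18 (0.16, adjusted p = 0.069) and Ighv1-64 (0.02) did not pass. Among 48 other Ighv1 genes 12 were higher and 1 lower, and Ighv1-82 stood at 0.47.

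DFL16, the Ighd1 family, was lower in none of the 7 genes (15.7% of all tested) and higher in 3 of 7 (23.5%), Ighv1-81 (0.18 ± 0.0248), Ighv1-64 (0.16 ± 0.0240) and Ighv1-50 (0.11 ± 0.0245), with adjusted p of 4.9e-08, 3e-07 and 0.00018, in 6 of 6 libraries each. The same 3 genes had less of DSP2, the Ighd2 family with the most members (lower in 14.8% of all tested): -0.14 ± 0.0266, -0.12 ± 0.0243 and -0.12 ± 0.0261, lower in 6 of 6 libraries. The DSP2 call ended for Ighv1-64 in productive joins alone (-0.0576, adjusted p = 0.084) and for Ighv1-50 and Ighv1-81 in out-of-frame joins alone (-0.120 and -0.0903, adjusted p = 0.15 and 0.32). Ighv1-64 had 40.5% to 47.0% DFL16 (median 45.3%) and a median of 38.4% DSP2, against 39.5% to 40.3% DFL16 and 41.4% to 42.6% DSP2 over all V genes.

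Joins with no D call were fewer in Ighv1-81 (-0.57 ± 0.100, adjusted p = 5e-06, lower in 5 of 6 libraries), Ighv1-50 (-0.33 ± 0.0901) and Ighv1-64 (-0.22 ± 0.0764), 3 of 7 against 10.4% of all tested. Among 48 other Ighv1 genes 6 were lower and 3 higher, and Ighv1-82 stood at -0.40. The call of Ighv1-50 was lost without 2.5 µg (-0.217) with V alignments of at least 150 bases (-0.0514) and with calls naming 1 gene (-0.0725), and that of Ighv1-64 without 5 µg (-0.186). DQ52, the D segment nearest J, was called in none of the 7 genes, where 13.9% of all tested were higher and 8.7% lower. In productive joins alone DQ52 was lower in 2 of 7 genes (7 of 96 V genes lower, 20 higher). Joins with no D call were then lower in 6 of 7 (11 of 96 lower, 19 higher). In out-of-frame joins alone neither was called in the 7 genes (of 102 V genes, 23 and 18 higher, 0 and 2 lower). The difference between the classes was not tested. In all joins against all other V genes, Ighv1-18 had no D value past the test. With calls naming 1 gene its DST4 value passed at the threshold (0.17, adjusted p = 0.05 as rounded). Against the other Ighv1 genes only (17.5% of 275 values higher and 6.55% lower), DST4 was higher in Ighv1-9 (0.31), Ighv1-50 (0.24) and Ighv1-53 (0.18), and DFL16 in Ighv1-81 (0.12) and Ighv1-64 (0.10). DST4 in Ighv1-81 (0.146) and Ighv1-55 (0.110), DFL16 in Ighv1-50 (0.0565) and joins with no D in Ighv1-50 (-0.150) and Ighv1-64 (-0.0469) missed the threshold in it. Here Ighv1-18 had more joins with no D call (0.23 ± 0.0747, adjusted p = 0.016). With libraries weighted equally none of the 14 D values of the 7 genes was called, and 21 of all 575 were (3.13% higher and 0.522% lower).

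In out-of-frame joins alone, DFL16 was still higher in Ighv1-64 (0.30 ± 0.0489, adjusted p = 5.4e-07), Ighv1-50 (0.23 ± 0.0614, adjusted p = 0.0027) and Ighv1-81 (0.21 ± 0.0628, adjusted p = 0.0073). DST4 was higher in Ighv1-53 (0.94 ± 0.216, adjusted p = 0.00049) and Ighv1-9 (0.68 ± 0.208, adjusted p = 0.011), where 19.4% of all D values tested in this class were called higher and 3.53% lower. In this class DST4 was higher in 21 of 102 V genes and lower in 0. Its median was 0.328 over all V genes, 0.53 over 40 other Ighv1 genes and 0.233 over the 7. Values above 0 were thus common and are not particular to these genes. DFL16 was higher in 27 of 102 and lower in 7, with a median of 0.103. DST4 missed the threshold in Ighv1-50 (0.0810), Ighv1-81 (0.233) and Ighv1-55 (0.431). The 5 called values were also called in productive joins alone (19.8% higher and 10.2% lower), at 0.12, 0.10, 0.18, 0.20 and 0.36 in the same order. The difference between the classes was not tested.

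The CDR3 of productive joins differed by less than 1 base between most genes. Its mean length was 37.9 to 38.6 bases in Ighv1-81 (median 38.5), 37.9 to 38.4 in Ighv1-18 (median 38.3), 36.9 to 37.9 in Ighv1-55 (median 37.6) and 37.3 to 37.6 in Ighv1-9 (median 37.5). Ighv1-64, Ighv1-53 and Ighv1-50 had medians of 38.0, 38.0 and 37.8, beside 37.8 to 38.0 over all V genes. Within a gene and library the SD was 6.01 to 7.60 bases, so the distributions overlapped almost fully.

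Against all other V genes of the same library, Ighv1-81 was longer by 0.577 ± 0.0817 bases (SE, n = 6, adjusted p = 3.7e-05, longer in 6 of 6 libraries) and Ighv1-18 by 0.427 ± 0.0836 (adjusted p = 0.00049, 5 of 6), 2 of 7 where 28.1% of 96 V genes were longer and 58.3% were called in either direction. Ighv1-9 was at -0.446 ± 0.0767 bases (adjusted p = 0.00018, shorter in 6 of 6) and Ighv1-55 at -0.363 ± 0.0900 (adjusted p = 0.0028, 5 of 6), 2 of 7 where 30.2% were shorter. Ighv1-53, Ighv1-64 and Ighv1-50 lay at 0.0601, 0.0383 and -0.0567 and did not pass. With calls naming 1 gene Ighv1-64 did (0.237, adjusted p = 0.0059). Against the other Ighv1 genes only, the same 4 were called, at 0.509, 0.358, -0.530 and -0.446 bases (15.6% of 45 Ighv1 genes longer and 33.3% shorter). Ighv1-81 was called under every alternative for productive joins that was run, and Ighv1-9 under all but the median length, where its difference and that of Ighv1-55 were 0.0 bases. The call of Ighv1-55 ended with V alignments of at least 150 bases (-0.0418, adjusted p = 0.82) and with calls naming 1 gene (-0.180, adjusted p = 0.10), and that of Ighv1-18 without unclear primer tags (0.199, adjusted p = 0.054) and without weights (0.346, adjusted p = 0.079).

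**Figure D5:**
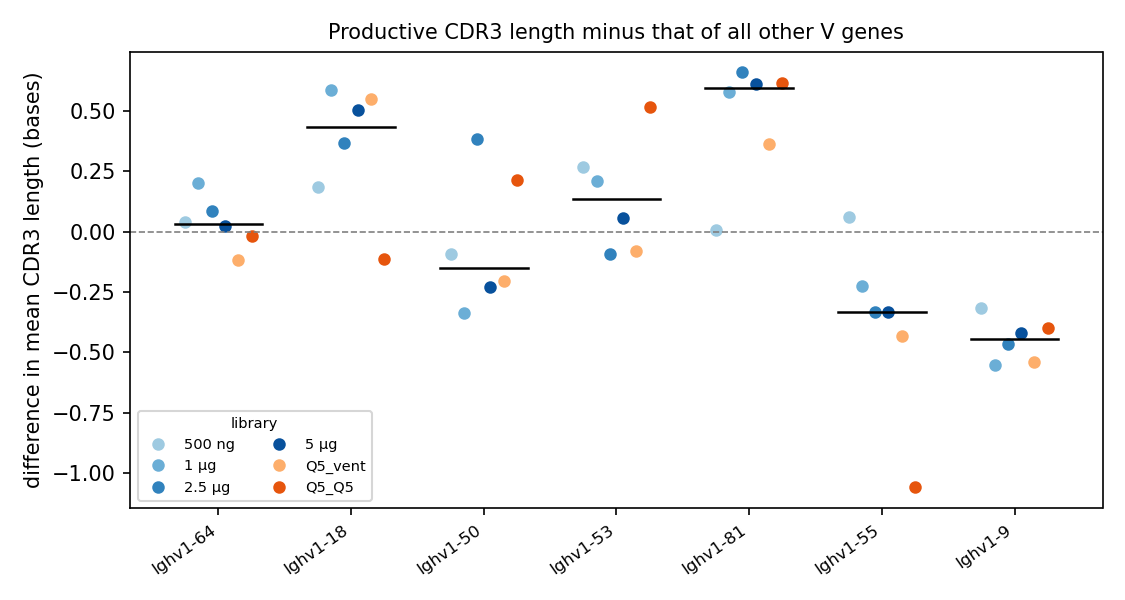
Mean CDR3 length of a gene's productive joins minus that of all other V genes in the same library (bases, y axis), with a point for each of 6 libraries and a bar at the median. Ighv1-9 lies below 0 in all 6 and Ighv1-81 above 0 in all 6 (by 0.00849 at 500 ng), while Ighv1-55 spans -1.06 to 0.0627.

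Out-of-frame joins gave another order. Their mean CDR3 was longest in Ighv1-64, at 40.1 to 41.8 bases (median 41.0), where all V genes had 38.3 to 38.8, and it was longer in 6 of 6 libraries (2.13 ± 0.263 bases, adjusted p = 1.2e-06; 16.7% of 102 V genes were longer and 31.4% shorter). In 83 of 806 of these joins (10.3%) the deposited CDR3 began at germline base 262 and not at base 289, where it began in the others that were checked. The same start was found in 30 of 5588 productive Ighv1-64 joins (0.537%), and in 160 in all, from 6 libraries. Their V alignments were 47 to 98 bases long.

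The early start is the usual one of another gene, Ighv1-87, in 600 of 606 of its sequences. Ighv1-87 was productive in 14.7% of 940 sequences. With V alignments of at least 150 bases the out-of-frame CDR3 of Ighv1-64 was at -0.591 ± 0.378 bases from that of the other V genes (adjusted p = 0.22), so the long value was not seen without the short V alignments. Ighv1-9 was shorter in this class too (-1.05 ± 0.272, adjusted p = 0.0037, and -1.93 ± 0.458 with long V alignments). Ighv1-18 and Ighv1-81 were at -0.519 and -0.540 here, opposite to their productive joins, and neither passed (adjusted p = 0.068 and 0.16). With V alignments of at least 150 bases Ighv1-18 was shorter (-0.826 ± 0.328, adjusted p = 0.035), the opposite of its productive joins, and Ighv1-81 was at -0.372.

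All 7 were called for more bases between V and D than the other V genes had, by 0.452 ± 0.0447 in Ighv1-18, 0.388 ± 0.0476 in Ighv1-53, 0.360 ± 0.0449 in Ighv1-50, 0.344 ± 0.0484 in Ighv1-81, 0.281 ± 0.0419 in Ighv1-64, 0.206 ± 0.0482 in Ighv1-55 and 0.123 ± 0.0502 in Ighv1-9 (37.4% of 115 V genes were higher and 36.5% lower). Joins with no D call, left out for bases between D and J, were kept in this measure, and their part in it was not tested. Ighv1-9 was higher in 4 of 6 libraries and missed the threshold in productive joins alone (0.110, adjusted p = 0.05) and in out-of-frame joins alone (0.265, adjusted p = 0.15). Each of the 7 also had fewer bases removed from the V end (47.0% of all tested were lower and 40.0% higher). Among other Ighv1 genes, 28 of 48 had more bases between V and D and 33 of 48 fewer removed, so both are common in the family.

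Trimming was least in Ighv1-18, which lost 0.284 to 0.461 bases a join (median 0.351) and kept its whole V end in 80.9% to 85.4% of joins (median 84.4%). Ighv1-64 lost most of the 7, 0.532 to 0.614 bases (median 0.552), with 74.9% to 77.7% of ends complete (median 75.9%). Over all V genes 0.841 to 0.885 bases were lost and 64.7% to 65.5% of ends were complete, so no library of these 2 genes overlapped with that range. The differences were -0.54 ± 0.0179 bases for Ighv1-18 and -0.29 ± 0.0157 for Ighv1-64 (adjusted p = 1.1e-10 and 4.9e-09), lower in 6 of 6 libraries. Fewer bases were also removed in the out-of-frame joins of all 7 genes (-0.556 to -0.238 bases). A base that matches the germline by chance is counted as V, which these files cannot separate.

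Bases between D and J were called in 3 of 7 genes, against 28.7% of all tested. Ighv1-50 (0.166 ± 0.0376, adjusted p = 0.00048) and Ighv1-81 (0.102 ± 0.0387, adjusted p = 0.040) had more (13.9% of all tested), and Ighv1-55 fewer (-0.102 ± 0.0378, adjusted p = 0.037; 14.8%). None of these passed with V alignments of at least 150 bases (0.171, 0.0679 and -0.0347). In productive joins alone 5 of 7 genes had more and 0 fewer (of 94 V genes, 15 more and 17 fewer). The call of Ighv1-55 ended there (-0.0652, adjusted p = 0.17). Ighv1-53 (0.120, adjusted p = 0.01), Ighv1-64 (0.120, adjusted p = 0.0031) and Ighv1-9 (0.147, adjusted p = 0.0026) passed only there.

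V sequences of the 7 genes carried few mismatches to the germline. The share with at least 1 mismatch was 1.30% to 4.54% in Ighv1-50 (median 4.07%) and had medians between 5.71% in Ighv1-18 and 7.25% in Ighv1-64 in the others, against 8.21% over all V genes. All 7 were lower than the other V genes (43.5% of all tested were lower and 15.7% higher), from -4.22 ± 0.316 percentage points in Ighv1-50 to -1.15 ± 0.285 in Ighv1-64. Among 48 other Ighv1 genes 23 were lower and 4 higher (median -1.97 points), so this too is common in the family. Ighv1-26, Ighv1-72 and Ighv1-82 stood at -1.66, -1.70 and -2.36 points. The median V alignment of Ighv1-50 was 86.0 to 109 bases, against 167 to 179 over all V genes, and shorter alignments leave fewer bases to differ. With at least 150 aligned bases its difference was -3.52 ± 0.568 points, still lower in 6 of 6 libraries.

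Between libraries, with 1 library a group, there is no replicate check and intervals cover counting error only. From 500 ng to 5 µg of DNA the share of no member changed by as much as 1.5-fold, as did 7 of 107 V genes (6.54%): ratios ran from 0.937 in Ighv1-50 to 1.07 in Ighv1-55 and all 7 intervals held 1. Between Q5_Q5 and Q5_vent the ratios ran from 0.848 in Ighv1-55 (95% interval 0.732 to 0.983) to 1.10 in Ighv1-9, and 0 of 84 V genes (0.0%) differed by 1.5-fold. The interval of Ighv1-55 alone left out 1.

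The share of sequences with a V mismatch was lower in Q5_Q5 than in Q5_vent in 7 of 7 genes. Over all V genes it was 4.50% against 7.76%, and unclear primer tags made up 8.21% against 12.9%, whose part in the difference was not tested. In Ighv1-64 it was 12 of 440 (2.73%) against 44 of 538 (8.18%), a ratio of 0.333 (95% interval 0.178 to 0.623). The ratios of the others ran from 0.260 in Ighv1-81 to 0.514 in Ighv1-53, and the intervals of Ighv1-53 and Ighv1-55 held 1. From 500 ng to 5 µg the ratios ran from 0.613 in Ighv1-18 (95% interval 0.388 to 0.968) to 1.57 in Ighv1-50, with 5 of 7 below 1. The other 6 intervals held 1.

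Clones, meaning the same V gene, J segment and CDR3 bases, rarely recurred: between 0.388% (Ighv1-50) and 0.841% (Ighv1-53) of a gene's clones were found in more than 1 library, against 0.781% over all V genes. The largest clone of the 7 genes was called Ighv1-55 and Ighj1, with 53 sequences in 6 libraries. Its CDR3 is shown because it also occurs under another V name, with capitals for the bases beyond the germline V end.
Ighv1-55 with Ighj1: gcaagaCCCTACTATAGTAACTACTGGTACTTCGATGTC

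Another 10 sequences with this CDR3 and Ighj1, from 4 libraries, were called Ighv1-50. All 10 named several V genes and had V alignments of 46 to 85 bases, while the 53 had 95 to 294. The split of this clone thus falls at the length where Ighv1-50 and Ighv1-55 become distinct.

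By use over the 12 combinations of library and class, the V gene outside the 7 with the most similar log2 shares was Ighv3-6 for Ighv1-64 and Ighv1-18 (root mean square difference 0.221 and 0.306). For the other 5 genes it was Ighv9-3 (0.125 in Ighv1-81 to 0.263 in Ighv1-50 and Ighv1-55).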

How the data were processed

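The deposited tables hold 1 row per deduplicated sequence with V, D and J calls, frame, CDR3 and alignment columns, per the file headers. Trim Galore 0.4.4, Bowtie2 2.3.2 and the build mm10 are listed per the submitters' processing notes, and a CDR3 column names IgBLAST per the file headers, with no version. V and J identity is a fraction from 0 to 1 and other columns are lengths in bases, per the file headers. Sequences were counted here from the deposited tables. The genes and lists were chosen with earlier results of these data known: the 7 genes in every comparison, Ighv1-26, Ighv1-72 and Ighv1-82 as the most like, other Ighv1 genes as 1 list, and the V gene nearest in use.

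Each V gene with at least 100 sequences was compared with all other V genes of the same library (pseudocount 0.5 for ratios). The 6 values were fitted with limma (intercept, eBayes, weights from counting variance) and adjusted by Benjamini-Hochberg over all features of a comparison. An adjusted p under 0.05 is called. eBayes borrows spread across V genes (prior degrees of freedom from 5.81 to infinite), so small p-values rest on that shared spread. Single shares have Wilson 95% intervals and ratios between libraries Katz 95% intervals, and finding none allows at most 0.0345% (500 ng) or 0.00267% (5 µg), taken as 3 counts. On data simulated for the productive over out-of-frame ratio of 115 genes, 20 of 20 genes changed 2-fold, 10 of 10 changed 1.5-fold and 3 of 85 unchanged genes were called. Alternatives were single-gene calls, 1 count per clone, no unclear primer tags, no weights, at least 500 sequences, pseudocount 1, other comparison genes, single join classes, medians, leaving out libraries and, added after seeing the data, V alignments of at least 150 bases, single join classes for the other join measures and both alignment rules for use. Python 3.11.15 and limma 3.58.1 in R 4.3.3 were used.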

Additional observations from a re-analysis of the deposited data

Results flagged for a closer look

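Of 63 sets of 6 library values (shares of use, productive share, CDR3 length and J shares of the 7 genes), 6 had a library apart from the rest by Dixon's criterion, which chance meets in about 1 of 20 sets. Q5_Q5 stood apart in 4 of them. Ighv1-55 made up 0.576% of its out-of-frame joins, against 0.928% to 1.09% in the other libraries, and 90.9% of Ighv1-55 joins were productive there, against 86.0% to 87.2%. Ighv1-53 took 2.38% of its sequences, against 2.20% to 2.26%, and Ighv1-9 took 2.22%, against 1.98% to 2.03%. Q5_vent stood apart for Ighv1-64, which took 2.76% of its sequences, against 2.87% to 2.93%, and was joined to Ighj1 in 15.8%, against 18.3% to 19.0%. The Ighv1-55 values of Q5_Q5 rest on 19 out-of-frame joins of 286 sequences.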

How the results depend on the processing

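No paired analysis was possible because each group has 1 library and the labels carry no replicate numbers. The share of use moved most in Ighv1-50, from 2.55% to 1.37% with V alignments of at least 150 bases and 1.08% with calls naming 1 gene. In that order it moved to 2.65% and 2.88% in Ighv1-18, 1.94% and 1.96% in Ighv1-53, and 2.49% and 2.43% in Ighv1-55, and with calls naming 1 gene to 3.25% in Ighv1-64, 2.43% in Ighv1-81 and 2.29% in Ighv1-9. Without weights 81 J values (of 191) and 21 D values (of 182) were called, with 2 and 0 in the 7 genes (of 15 and 14) and 2 CDR3 values in them (of 4). Against other Ighv1 genes only, which are fewer, 45 V genes were called for the productive over out-of-frame ratio, 42 J values, 66 D values and 22 CDR3 lengths, with 7 J values in the 7 genes, and Ighv1-18 turned to -0.074. Out-of-frame joins, which are fewer, gave 16 J and 117 D values, with 0 and 6 in the 7 genes, 43 V genes for bases between V and D, 1 and 0 for bases between D and J, and 2 CDR3 values in the 7 genes (31 and 2 with long V alignments). In them these J values turned sign without passing: Ighj1 in Ighv1-18 (-0.0673), Ighv1-50 (0.165) and Ighv1-9 (0.0683), Ighj2 in Ighv1-18 (0.0444), Ighv1-50 (-0.037), Ighv1-64 (-0.028) and Ighv1-81 (-0.0417), Ighj3 in Ighv1-64 (0.057) and Ighv1-81 (0.041), and Ighj4 in Ighv1-50 (0.173). So did joins with no D in Ighv1-50 (0.0156), bases between D and J in Ighv1-50 (-0.247) and Ighv1-81 (-0.0925), and CDR3 length in Ighv1-18 (-0.519, and -0.826 with long V alignments, which passed) and Ighv1-81 (-0.54 and -0.372). Productive joins only gave 5 of the 7 genes for bases between D and J, all higher, where 15 of 94 V genes were higher and 17 lower. V alignments of at least 150 bases gave 9 J values, and 18 V genes and 0 of the 7 for bases between D and J. Without unclear tags, and with medians, 2 CDR3 values of the 7 genes were called. Leaving out each library gave 96 to 110 V genes for the ratio, 135 to 190 J values (12 to 14), 114 to 178 D values (13 to 15) and 46 to 56 CDR3 lengths (4). The cause of these shifts was not tested. The smallest libraries limit the out-of-frame values, with as few as 19 joins.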
